A study of Homo sapiens with 12 samples.

Results

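The proteasome genes were followed in HK-2 cells, an established line of immortalized human kidney proximal tubule cells. They were the 48 rows of the 35238 in the deposited table whose symbol is PSMA, PSMB, PSMC, PSMD, PSME, PSMF or PSMG and a number. Cells received 10 nM of scrambled siRNA (SCR) or of an siRNA against POLR2A (siB) by transient transfection, and at the same time the vehicle DMSO or aristolochic acid I (AAI) at 25 µM, a DNA-damaging nephrotoxin from plants. After 24 hours polyadenylated RNA was sequenced in 4 groups of 3 replicates (SCR DMSO, SCR AAI, siB DMSO and siB AAI), 12 libraries in all. All 12 libraries shared the cell line and the transfection, and every DMSO library also carried an siRNA. Nothing in the labels said that the replicates were separate cultures, so that the p-values measure the spread between these samples, which may be technical. Levels are given as CPM, a gene's reads scaled to the same total in every library, and changes as log2 fold changes of CPM + 1.

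The proteasome is the barrel-shaped protease that degrades proteins tagged with ubiquitin. Its 20S core stacks rings of alpha (PSMA) and beta (PSMB) subunits, and its 19S cap of ATPases (PSMC) and other subunits (PSMD) recognizes, unfolds and feeds in the substrate. Cells that respond to interferon build an immunoproteasome by exchanging the catalytic subunits PSMB6, PSMB7 and PSMB5 for PSMB9, PSMB10 and PSMB8, which favors peptides for class I antigen presentation. RPB1, the protein encoded by POLR2A, is itself ubiquitylated and degraded by the proteasome when RNA polymerase II stalls at DNA damage, and the study lowered POLR2A in cells with such damage.

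Depth ran from 15844015 to 42805294 reads per library, and a gene at 0 reads could stand at up to 0.0701 CPM in the deepest and 0.189 CPM in the shallowest library (3 reads, counting error only). The knockdown target POLR2A had 258, 288 and 306 CPM in SCR DMSO and 138, 143 and 139 CPM in siB DMSO, and 673, 719 and 729 CPM in SCR AAI and 266, 220.4 and 210.3 CPM in siB AAI. With AAI and with DMSO all siB libraries were below all SCR libraries. The difference of siB from SCR was -1.61 ± 0.15 (SE; adjusted p = 5.82e-04) with AAI and -1.01 ± 0.13 (SE; adjusted p = 0.505) in DMSO, where no gene passed the correction. POLR2A rose with AAI in SCR cells by 1.32 ± 0.19 (SE; adjusted p = 0.00321), although without SCR AAI replicate 2 or 3 this missed the threshold (0.0531 and 0.0639). In siB cells POLR2A also rose with AAI, by 0.607 to 0.788 over 14 alternative settings of the fit, and passed in all 14. Along the second principal component (18.3% of variance) SCR DMSO replicate 2 stood apart from the rest of its group, at -62.2 against 57.8 and 20.03. In that library 17 of the 46 expressed proteasome genes were lower than the mean of the other 2 SCR DMSO libraries and 29 were higher, with differences from -1.49 (PSMC6) to 0.75 on the log2 scale, so results that rest on it are given with and without it. Of markers for the labelled cell type, the epithelial genes PAX8, KRT8, KRT18 and GGT1 were expressed at over 90 CPM in every library. The transport genes LRP2, AQP1, SLC22A6 and SLC22A8 of the mature proximal tubule stayed at or below 1.20 CPM. SLC5A2 and SLC34A1, also transport genes of that tubule, reached 1 CPM in 3 or more libraries of the SCR groups and of the siB groups.

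Of the 48 proteasome genes, 46 were expressed and passed the filter (3 or more of the libraries in a fit at a CPM of 1 or more) in every comparison. Summed over all 48, they held between 5078 CPM (SCR DMSO replicate 1) and 6929 CPM (SCR AAI replicate 3), that is 0.508% to 0.693% of reads. Divided by the length of the canonical transcript, the mean level over 12 libraries was highest for PSMA7, a subunit of the 20S alpha ring, at 392 CPM per kb. Next came PSMB4 (293 CPM per kb) of the beta ring and PSMD2 (277 CPM per kb), a scaffold of the 19S base. The lowest of the expressed members was PSME4, which encodes the activator PA200, at 10.2 CPM per kb. The median per kb was 204 for the 7 constitutive beta subunits, 93.0 for the 7 alpha subunits, 71.8 for 11 19S non-ATPase subunits and 47.2 for the 6 ATPases. It was 60.2 for the 4 activators, 30 for the 3 immunoproteasome subunits and 22.9 for 7 assembly factors, and the inhibitor PSMF1 stood at 18.5. These values depend on the transcript chosen for the length. The table also held 31 rows of proteasome pseudogenes, copies that could share reads with their parent genes, of which 3 reached 1 CPM in any library and the highest stood at 5.98 CPM.

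The other 2 members are made in few tissues. PSMA8, the alpha subunit of the testis, had 0 reads in all 12 libraries, with the limits given above. PSMB11, the beta subunit of thymic epithelium, lies on chromosome 14 (hg38, 23042212 to 23044060, plus strand) and overlaps no other annotated gene. It had 0, 0 and 3 reads in SCR DMSO against 10, 16 and 4 with AAI. The siB libraries held 0, 0 and 1 reads in DMSO and 19, 25 and 13 with AAI, so that the AAI libraries held more reads with both siRNAs. Over the groups these reads amounted to a ratio of 13.9 in SCR cells (exact 95% interval 4.34 to 71.4) and 64.4 in siB cells (11.1 to 2589), which covers counting error only. The level in siB AAI was 1.02 ± 0.278 CPM (SD, n = 3), about the filter, and the gene was left untested.

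**Figure D1:**
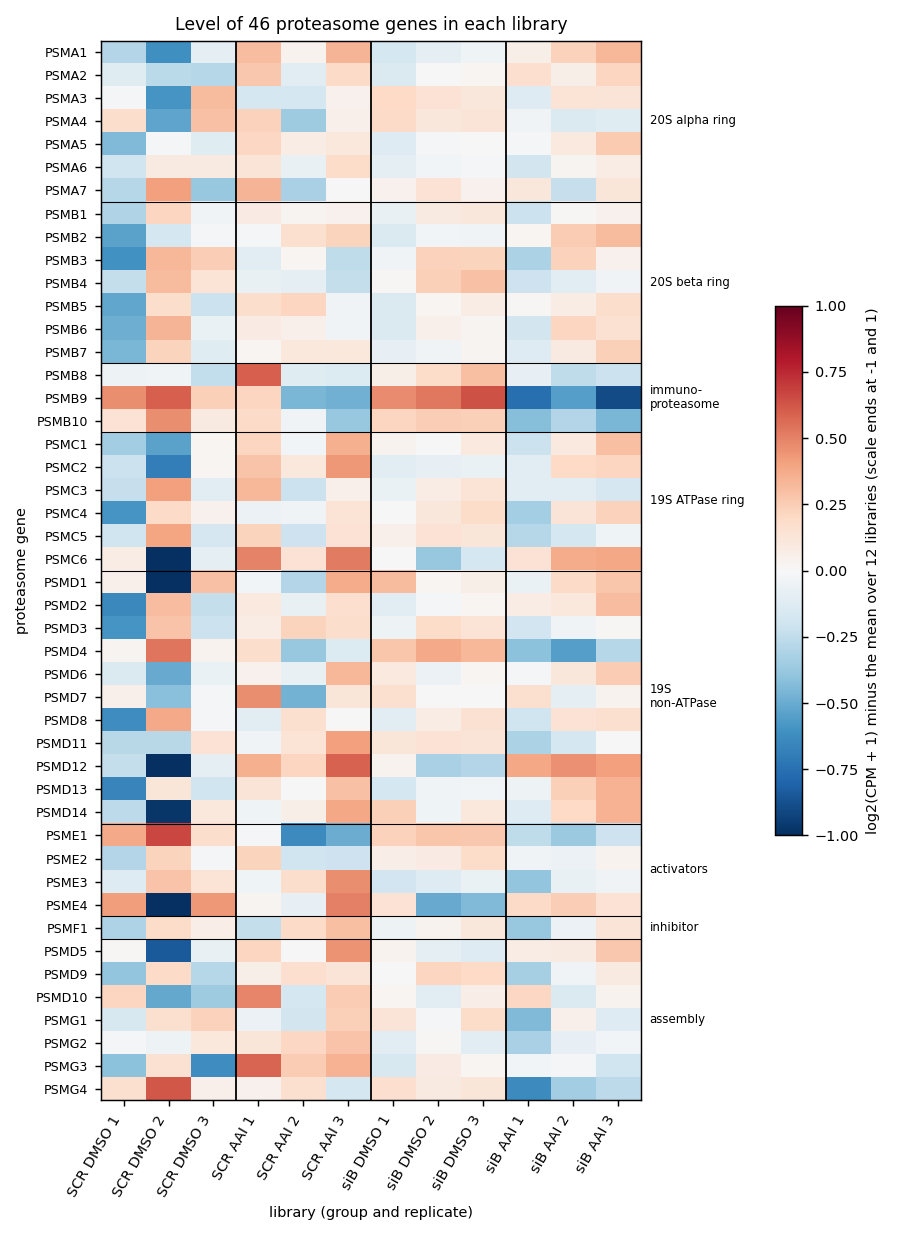
Level of the 46 expressed proteasome genes (rows, grouped by role) in the 12 libraries (columns, by group and replicate), as log2(CPM + 1) minus the gene's mean over all libraries. The row of the immunoproteasome subunit PSMB9 is lowest in the 3 siB AAI libraries (6.91 to 9.05 CPM), and SCR DMSO replicate 2 has the lowest values of PSMC6, PSMD1, PSMD12, PSMD14 and PSME4.

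To set the later results beside the DNA, RefSeq promoters (GRCh38.p14, 250 bases before to 50 bases after a start site) were found for 42 of the 48 members, in 51 windows, since some genes have several start sites. The core of the antioxidant response element bound by the factors NFE2L1 and NFE2L2 (TGACNNNGC, either strand) was in 15 of 42 members (35.7%) and in 16.1% of 27305 genes, and the CCAAT box in 20 (47.6%) and 39.7%. A box read by interferon regulatory factors (GAAANNGAAA, either strand), searched after the expression values were seen, was in 7 of 42 members (16.7%) and in 4.38% of all genes. The GAS motif (TTCNNNGAA), another interferon element, also searched then, was in 8 of 42 (19%) and in 9.38%. No match of one of these motifs overlapped a match of another in these windows. The promoters of 4 members with large changes in siB cells are shown whole, each read 5′ to 3′ on the strand of its gene. In PSMB9 (chr6:32853942-32854241, plus strand) and PSMD12 (chr17:67366528-67366827, minus strand) capitals mark the antioxidant core, and in PSMB10 (chr16:67936801-67937100, minus strand) and PSME1 (chr14:24135944-24136243, plus strand) the interferon factor box.
PSMB9: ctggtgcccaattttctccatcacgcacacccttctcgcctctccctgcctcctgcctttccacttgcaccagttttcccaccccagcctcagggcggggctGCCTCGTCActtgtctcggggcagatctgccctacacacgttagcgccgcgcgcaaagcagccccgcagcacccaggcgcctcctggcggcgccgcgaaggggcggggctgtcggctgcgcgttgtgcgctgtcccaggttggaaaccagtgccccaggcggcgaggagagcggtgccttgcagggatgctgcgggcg
PSMD12: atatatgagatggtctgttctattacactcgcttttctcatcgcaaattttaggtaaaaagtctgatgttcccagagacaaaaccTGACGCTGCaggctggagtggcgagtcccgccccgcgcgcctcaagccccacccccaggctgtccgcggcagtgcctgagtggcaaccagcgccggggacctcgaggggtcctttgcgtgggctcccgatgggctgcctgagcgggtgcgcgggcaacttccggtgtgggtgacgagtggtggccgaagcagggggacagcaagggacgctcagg
PSMB10: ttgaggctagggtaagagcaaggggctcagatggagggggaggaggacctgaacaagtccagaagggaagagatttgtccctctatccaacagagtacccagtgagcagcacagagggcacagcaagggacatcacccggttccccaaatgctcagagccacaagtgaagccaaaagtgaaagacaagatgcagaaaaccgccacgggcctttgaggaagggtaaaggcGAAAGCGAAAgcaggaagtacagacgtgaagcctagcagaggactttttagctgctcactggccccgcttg
PSME1: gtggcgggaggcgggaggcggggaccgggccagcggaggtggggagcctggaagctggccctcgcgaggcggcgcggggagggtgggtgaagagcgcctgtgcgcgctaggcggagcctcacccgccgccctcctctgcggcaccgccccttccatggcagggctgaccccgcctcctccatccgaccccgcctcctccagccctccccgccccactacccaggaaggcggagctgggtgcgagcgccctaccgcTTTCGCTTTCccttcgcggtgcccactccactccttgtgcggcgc
The box of PSMB10 began 21 bases before the start site, and that of PSME1, on the other strand, 6 bases after it. The remaining members with the box near the start are shown as 30 bases around it, with the box in capitals, for PSMB8 (chr6:32844032-32844061), PSMG4 (chr6:3258904-3258933), PSMB4 (chr1:151399495-151399524) and PSME2 (chr14:24146619-24146648).
PSMB8: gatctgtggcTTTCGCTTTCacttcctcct
PSMG4: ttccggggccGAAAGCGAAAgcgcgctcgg
PSMB4: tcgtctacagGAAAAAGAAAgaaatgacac
PSME2: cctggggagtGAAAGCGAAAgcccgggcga
The 10 bases were the same in PSMB10, PSMG4 and PSME2, and their reverse complement stood in PSMB8 and PSME1. PSMA4 held the remaining match, and it lay further from the start than these, 240 bases before it. A match is a string of letters and no evidence that a factor binds.

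The first comparison asked how the proteasome genes respond to the toxin when POLR2A is intact. In SCR cells no proteasome gene passed limma's moderated test with AAI (0 of 46 at an adjusted p under 0.05; 6 of 46 at an unadjusted p under 0.05, as were 27% of all genes, and 0 with voom), where 12.3% of 14228 genes passed. At the study's limit of 2-fold 0 members were called, against 10.5% of all genes. In bulk libraries fewer cells of a type and less RNA per cell cannot be told apart. The log2 changes ran from -0.79 (PSME1) to 1.0 (PSMD12). Of the 46, 35 were higher and 11 lower with AAI, with a median of 0.19 against 0.18 for all genes tested. With median-ratio size factors in place of CPM totals the median of all genes fell to -0.01, that of the proteasome genes also to -0.01, and the split became 22 higher and 24 lower. The groups did not overlap for 9 members that were higher with AAI and 2 that were lower, against 22.2% and 11.5% of all genes.

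Among the members with the largest differences in SCR cells was PSMD12, a subunit of the 19S lid. Its level was 73.9, 30.3 and 81.6 CPM in SCR DMSO and 112, 101 and 132 CPM in SCR AAI. All AAI libraries were above all DMSO libraries, and the lowest value was that of SCR DMSO replicate 2. The difference was 1.0 ± 0.37 (SE; adjusted p = 0.133), and 0.55 (0.0846) without that library. PSMC6, an ATPase of the 19S base, had 82.2, 26.9 and 73.0 CPM in SCR DMSO and 110.0, 86.2 and 112 CPM in SCR AAI, again without overlap and lowest in the same library. The difference was 0.89 ± 0.41 (SE; adjusted p = 0.209), and 0.39 (0.220) without SCR DMSO replicate 2. PSMG3, a chaperone of 20S assembly, had 23.6, 35.2 and 20.2 CPM in DMSO and 47.8, 37.7 and 40.4 CPM in AAI, with no overlap. It differed by 0.68 ± 0.27 (SE; adjusted p = 0.152) and passed without SCR DMSO replicate 2 (0.91, adjusted p = 0.0166), which was the highest DMSO library for this gene.

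The largest difference downward was that of PSME1, which encodes the alpha subunit of the PA28 activator, a ring induced by interferon gamma that opens the 20S core. Its level was 137, 167 and 119 CPM in SCR DMSO and 104, 67.2 and 74.2 CPM in SCR AAI, so every AAI library was below every DMSO library. The difference was -0.79 ± 0.24 (SE; adjusted p = 0.0763), which missed the threshold. PSMB9 was next at -0.67 ± 0.29 (SE; adjusted p = 0.18), followed by PSMD4, the 19S receptor for ubiquitin chains, at -0.32 ± 0.24 (SE; adjusted p = 0.444). Same-numbered SCR libraries deviated together, so that the numbers were taken as pairs. With the replicate number as a block 3 members passed, PSMD12 and PSMC6 upward (adjusted p = 0.0305 and 0.0489) and PSME1 downward (0.0411), where 21.1% of all genes did. Over 14 alternatives the adjusted p ran from 0.0272 to 0.407 for PSMD12, from 0.0489 to 0.498 for PSMC6 and from 0.00621 to 0.31 for PSME1. With all 4 groups in 1 fit PSMA1, PSMC2, PSMD12 and PSMG3 passed upward and PSMB9 and PSME1 downward, 8.70% and 4.35% of members against 17.6% and 9.02% of all genes in that fit.

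In siB cells, where the same toxin met lowered POLR2A, 13 of 46 proteasome genes passed with AAI (28.3%), against 52.2% of 14928 genes. Of these 9 fell (19.6% of members, against 21.8% of all genes) and 4 rose (8.70% against 30.4%). The members' median was -0.05 and that of all genes 0.10, and with median-ratio size factors -0.16 and -0.02, when 2 rose and 10 fell (26.7% and 27.2% of all genes). At 2-fold 1 member was called, PSMB9, against 19.7% of all genes. The groups did not overlap for 8 members that were higher with AAI and 12 that were lower, against 34.2% and 26.6% of all genes.

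All 3 immunoproteasome subunits fell in siB cells, although 2 of them by less than 2-fold. PSMB9 (chromosome 6, hg38, 32844136 to 32859851, plus strand) had 19.4, 20.2 and 21.9 CPM in siB DMSO and 7.76, 9.05 and 6.91 CPM in siB AAI. Every AAI library was below every DMSO library, and the difference was -1.28 ± 0.15 (SE; adjusted p = 1.46e-04). PSMB10, which replaces PSMB7, had 33.5, 34.3 and 34.1 CPM in DMSO and 21.1, 23.2 and 20.6 CPM in AAI and fell by 0.63 ± 0.12 (SE; adjusted p = 0.0022) on the log2 scale. PSMB8, which replaces PSMB5, had 61.0, 66.9 and 72.7 CPM and 55.3, 49.0 and 50.5 CPM and fell by 0.37 ± 0.12 (SE; adjusted p = 0.0244). PSMB9 and PSMB10 passed in all 14 alternatives and PSMB8 in 9. PSMB8 missed the threshold without siB AAI replicate 2 or 3 and without siB DMSO replicate 2 or 3 (adjusted p = 0.0823, 0.0824, 0.0831 and 0.122) and with all 4 groups in 1 fit (0.170). In SCR cells PSMB9 had 19.3, 21.3 and 16.4 CPM in DMSO and 16.1, 9.74 and 9.55 CPM in AAI, with replicate 1 close to the DMSO libraries. There PSMB10 (31.8, 40.0 and 30.7 CPM against 32.9, 28.0 and 21.8 CPM) and PSMB8 (56.7, 57.2 and 49.3 CPM against 89.3, 54.0 and 53.3 CPM) overlapped between the groups, with differences of -0.31 ± 0.25 (SE; adjusted p = 0.472) and 0.23 ± 0.26 (SE; adjusted p = 0.617). The spans of PSMB9, PSMB8, PSMB8-AS1 and TAP1 overlap in part, and whether counting used strand is not given in the sources used here, so reads in the shared stretches cannot be told apart.

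The constitutive counterparts did not pass. PSMB6, the subunit with caspase-like activity, had 107, 123 and 121 CPM in siB DMSO and 105, 138 and 132 CPM in siB AAI, a difference of 0.08 ± 0.13 (SE; adjusted p = 0.614). PSMB7, with trypsin-like activity, had 188, 195 and 203 CPM and 182, 212 and 235 CPM, a difference of 0.10 ± 0.11 (SE; adjusted p = 0.495). PSMB5, with chymotrypsin-like activity, had 158, 177 and 184 CPM and 177, 184 and 198 CPM, a difference of 0.11 ± 0.10 (SE; adjusted p = 0.41). In SCR cells the differences were 0.11, 0.19 and 0.31, each with an adjusted p of at least 0.443. Ratios within a library do not depend on its total. The ratio of PSMB9 to PSMB6 was 0.176 ± 0.00964 in siB DMSO (SD, n = 3) and 0.0641 ± 0.0109 in siB AAI, and 0.172 ± 0.0499 and 0.0967 ± 0.0272 in SCR cells, without overlap in either. The ratio of PSMB10 to PSMB7 went from 0.174 ± 0.00558 to 0.104 ± 0.0149 in siB cells and from 0.186 ± 0.0289 to 0.132 ± 0.0308 in SCR cells. That of PSMB8 to PSMB5 was 0.386 ± 0.00900 and 0.278 ± 0.0308 in siB cells, and 0.361 ± 0.0935 and 0.343 ± 0.0963 in SCR cells, where the groups overlapped. With 3 libraries against 3 an exact permutation test cannot reach a p under 0.10, so the ratios were not tested.

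**Figure D2:**
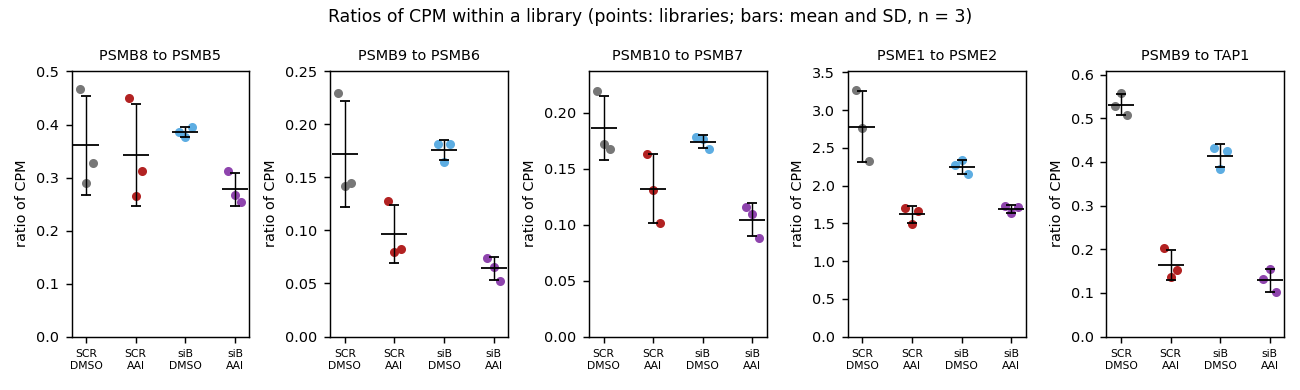
Ratios of CPM within a library for 5 gene pairs (y axes) in the 4 groups (x axes), with points for libraries and bars for the mean and SD (n = 3). The ratio of PSMB9 to TAP1 is 0.509 to 0.557 in SCR DMSO and 0.136 to 0.202 in SCR AAI, and that of PSMB8 to PSMB5 overlaps between the SCR groups.

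Of the activators, PSME1 fell in siB cells from 124, 128 and 127 CPM in DMSO to 87.9, 81.2 and 90.9 CPM in AAI, by 0.54 ± 0.10 (SE; adjusted p = 0.00157). Its partner in the PA28 ring, PSME2, had 54.5, 54.8 and 59.2 CPM and 50.7, 49.7 and 53.2 CPM and did not pass (-0.13, adjusted p = 0.326), nor in SCR cells (-0.03, 0.95). The ratio of PSME1 to PSME2, genes that lie close together on chromosome 14, was 2.25 ± 0.0947 in siB DMSO (SD, n = 3) and 1.69 ± 0.0529 in siB AAI. In SCR cells it was 2.78 ± 0.474 and 1.62 ± 0.110, and in both the groups did not overlap. PSME3, the nuclear PA28 gamma, had 150.1, 157 and 163 CPM and 129.8, 162 and 167 CPM in siB cells, a difference of -0.04 ± 0.12 (SE; adjusted p = 0.784). PSME4 had 78.0, 49.4 and 51.9 CPM and 80.7, 83.9 and 78.2 CPM and rose by 0.46 ± 0.17 (SE; adjusted p = 0.0417), which held in 6 of 14 alternatives. In SCR cells PSME3 differed by 0.10 and PSME4 by 0.22 (adjusted p = 0.795 and 0.766). The inhibitor PSMF1 (PI31) had 144, 153 and 161 CPM and 115, 143 and 164 CPM in siB cells, a difference of -0.13 ± 0.14 (SE; adjusted p = 0.427), and of 0.11 in SCR cells (0.803).

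In the 19S cap the members went both ways in siB cells. PSMD4 had 153, 163 and 158 CPM in DMSO and 94.4, 85.3 and 103 CPM in AAI, without overlap, and fell by 0.75 ± 0.11 (SE; adjusted p = 3.70e-04), second in size to PSMB9. The lid subunit PSMD11 and the ATPase PSMC5 fell by less, by 0.30 (0.0389) and 0.28 (0.0467). PSMD12 had 89.6, 69.7 and 71.3 CPM and 115, 120.4 and 117 CPM and rose by 0.61 ± 0.12 (SE; adjusted p = 0.00237). PSMC6 rose from 77.6, 59.6 and 68.9 CPM to 86.3, 101 and 102 CPM, by 0.49 ± 0.13 (SE; adjusted p = 0.0109). Both had the same sign in SCR cells, as given above. The other 12 of 17 members of the cap did not pass in siB cells, among them the scaffold PSMD2 (0.20) and the deubiquitinase PSMD14 (0.04).

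In the 20S core the alpha subunit PSMA1 rose (0.31, adjusted p = 0.0356) and the beta subunit PSMB4 fell (-0.30, 0.0429), and the other 12 of 14 constitutive core members did not pass. Of 7 assembly factors PSMG4, a chaperone of alpha ring assembly, was the 1 that passed. It had 20, 18.9 and 19.3 CPM in siB DMSO and 11, 13.7 and 14.6 CPM in siB AAI and fell by 0.54 ± 0.15 (SE; adjusted p = 0.014). The calls near the threshold were the least stable. PSMA1 passed in 7 of 14 alternatives, PSMB4 and PSME4 in 6, PSMC5 in 5 and PSMD11 in 8. PSMC6 passed in 11, PSMD12 and PSMG4 in 13, and PSMD4 and PSME1 in all 14. PSMC6 missed the threshold without siB AAI replicate 3 (0.0544) or siB DMSO replicate 2 (0.0589), and PSMG4 without siB DMSO replicate 3 (0.0504). With all 4 groups in 1 fit, where the wider spread of the SCR libraries enters, PSMB9, PSMB10, PSMD4, PSME1 and PSMG4 still passed and no member rose. Of the 8 members that fell and have a promoter entry, 5 held the interferon factor box shown above (PSMB4, PSMB8, PSMB10, PSME1 and PSMG4), as did 0 of the 4 that rose and 2 of the other 30. The GAS motif, the other interferon element, was in 1 of the 8 that fell, 0 of the 4 that rose and 7 of the other 30. For the antioxidant core these counts were 3, 2 and 10, and for the CCAAT box 2, 0 and 18. The interferon factor box and the GAS motif were searched after these changes were seen, so their counts describe the same values and cannot serve as a test. PSMB9, which fell most, did not hold the interferon factor box in this window, and PSME2, which did not pass, did.

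**Figure D3:**
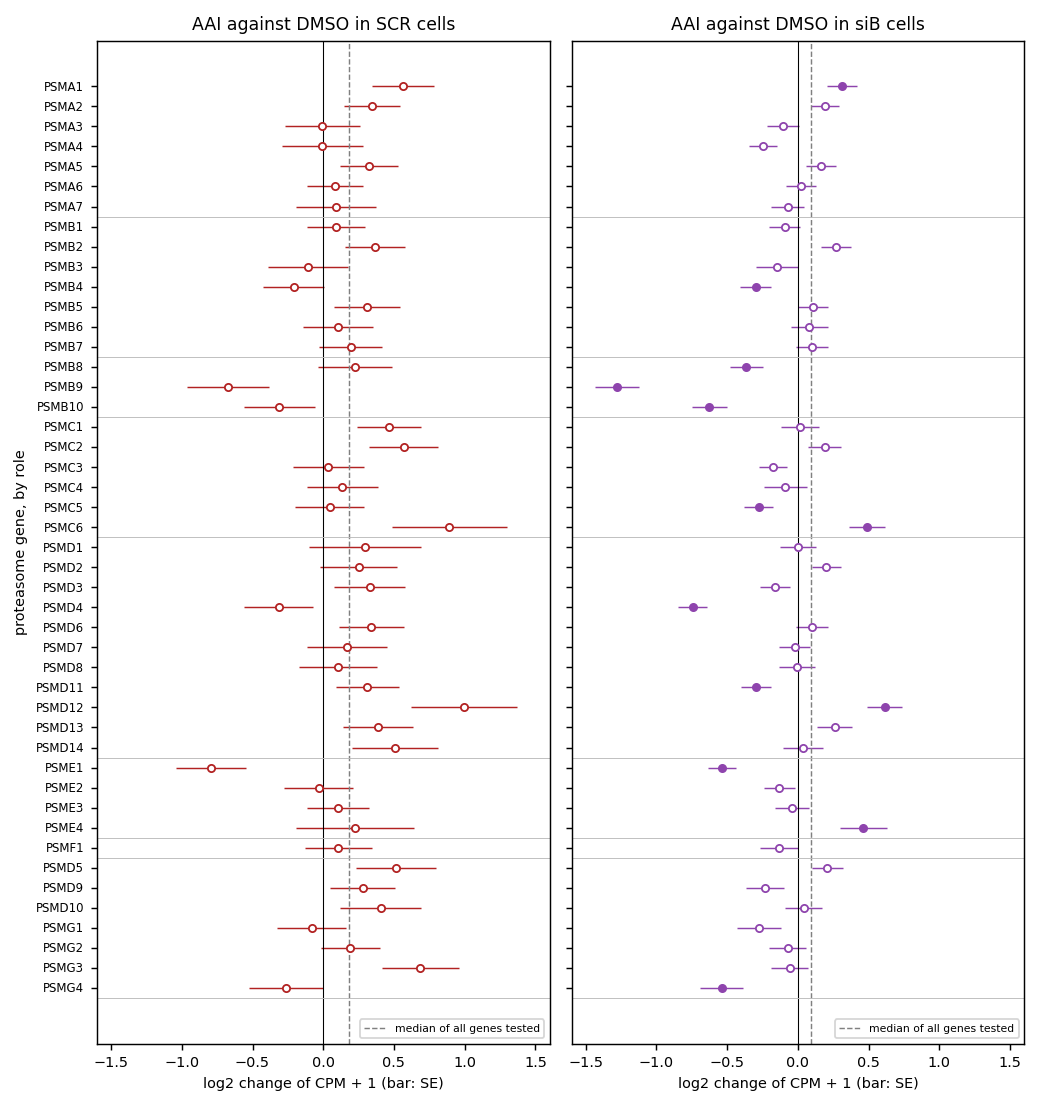
Log2 change of CPM + 1 with AAI (x axis, with limma's SE) for 46 proteasome genes (y axis, grouped by role from the 20S alpha ring at the top to assembly factors) in SCR cells (left) and siB cells (right). Filled points passed an adjusted p of 0.05 (0 in SCR cells and 13 in siB cells), and the dashed line is the median of all genes tested (0.18 and 0.10).

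**Figure D4:**
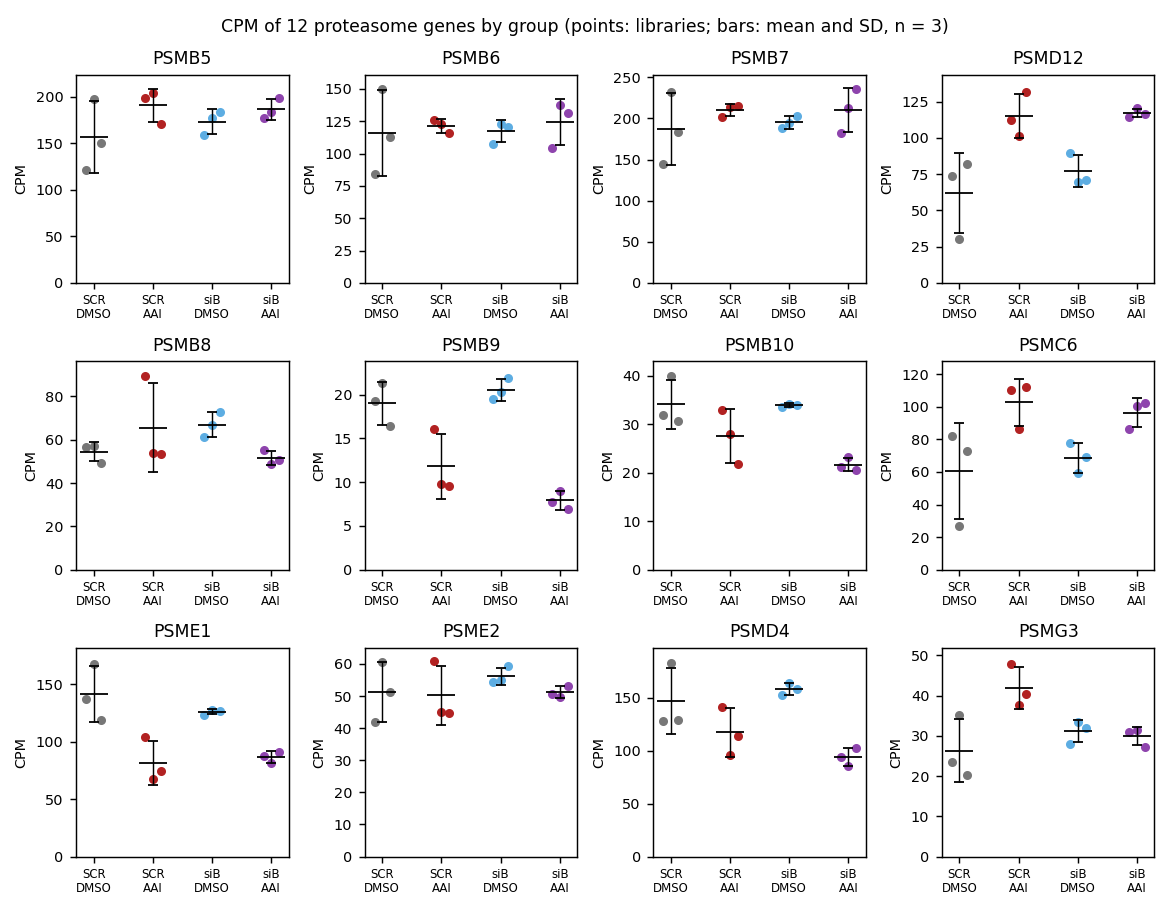
CPM (y axes, from 0) of 12 proteasome genes in the 4 groups (x axes), with points for libraries and bars for the mean and SD (n = 3). PSMB9, PSMB10, PSMD4 and PSME1 are lower and PSMD12 and PSMC6 higher in siB AAI than in siB DMSO without overlap, and PSMB5, PSMB6 and PSMB7 overlap.

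The effect of the knockdown was compared within AAI and within DMSO. These comparisons share their libraries with those above. With AAI, no proteasome gene passed between siB and SCR cells (0 of 46; 2 at an unadjusted p under 0.05, PSMG3 and PSMG4, against 25.5% of all genes, and 0 with voom), where 9.28% of 14946 genes did, and 3.67% at 2-fold. Of the 46, 16 were higher and 30 lower in siB AAI, and the median was -0.05 against 0.00 for all genes. The largest differences were PSMB9 (-0.49, adjusted p = 0.204), PSMG3 (-0.47, adjusted p = 0.101) and PSMG4 (-0.42, adjusted p = 0.195) downward, and PSMA3 (0.15, adjusted p = 0.599), PSMD1 (0.12, adjusted p = 0.742) and PSME1 (0.11, adjusted p = 0.757) upward. All 7 assembly factors were lower in siB AAI, and PSMG3 had 30.9, 31.4 and 27.3 CPM there against 47.8, 37.7 and 40.4 CPM in SCR AAI, without overlap. Groups did not overlap for 5 members, all lower in siB AAI (PSMB9, PSMD3, PSMG2, PSMG3 and PSMG4), where 15.8% of all genes were lower without overlap. Here too the numbers were taken as pairs. Replicates 2 and 3 deviated together at 0.318 and 0.292, little more than across the numbers (0.215 and 0.224). With the replicate block 4 members passed, all lower in siB cells, PSMG3 (adjusted p = 0.0120), PSMB9 (0.0225), PSME3 (0.0381) and PSMG4 (0.0421), where 28.9% of all genes did. The catalytic subunits PSMB5, PSMB6 and PSMB7 differed between siB AAI and SCR AAI by -0.03, 0.03 and -0.01, PSMB8 and PSMB10 by -0.30 and -0.32, and PSME2, PSME4 and PSMF1 by 0.04, 0.04 and -0.19. Over 14 alternatives the adjusted p of PSMG3 ran from 0.012 to 0.333, and that of PSMB9 from 0.0225 to 0.494.

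In DMSO, no proteasome gene passed (0 of 46 by limma, also at an unadjusted p under 0.05, and 0 with voom), and no gene of 13606 did, 0% (644, or 4.73%, at an unadjusted p under 0.05). Of the 46, 40 were higher in siB DMSO and 6 lower, with a median of 0.16 against 0.06 for all genes, and with median-ratio size factors 34 were higher and 12 lower. The median was 0.20 without SCR DMSO replicate 2, against -0.04 for all genes. Without SCR DMSO replicate 1 it was 0.04, below the 0.15 of all genes. The largest differences were PSMD14 (0.48), PSMD12 (0.42) and PSMD1 (0.41) upward and PSME3 (-0.22), PSME4 (-0.19) and PSME1 (-0.15) downward, each with an adjusted p of 1.0. In SCR DMSO replicate 2 PSMD14, PSMD12, PSMD1 and PSME4 were lower than in the rest of its group, by -0.89, -1.33, -1.35 and -1.49. Over 14 alternatives the difference of siB from SCR ran from 0.178 to 0.717 for PSMD14 and from -0.0245 to 0.677 for PSMD12. It ran from -0.0395 to 0.699 for PSMD1 and from -0.691 to 0.0585 for PSME4. The immunoproteasome subunit PSMB9 had 19.3, 21.3 and 16.4 CPM in SCR DMSO and 19.4, 20.2 and 21.9 CPM in siB DMSO, and the groups overlapped. PSMB8 was higher in siB DMSO without overlap (0.29), as was PSMD6 (0.26), 2 of 46 members against 8.28% of all genes. PSMB5, PSMB6, PSMB7 and PSMB10 differed by 0.17, 0.05, 0.09 and 0.00, and PSME2 and PSMF1 by 0.14 and 0.05.

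Whether the AAI effect differed between siB and SCR cells was tested as an interaction over 12 libraries. No proteasome gene passed (0 of 46; 2 at an unadjusted p under 0.05, PSMG3 and PSMD11, against 13.3% of all genes, and 0 with voom), against 1.61% of 15325 genes. The estimate was negative for 44 of 46 members (39 with median-ratio size factors and 39 without SCR DMSO replicate 2), with a median of -0.23 against -0.06 for all genes. The largest were PSMG3 at -0.74 ± 0.28 (SE; adjusted p = 0.267), PSMD11 at -0.61 ± 0.23 (SE; adjusted p = 0.265) and PSMB9 at -0.61 ± 0.30 (SE; adjusted p = 0.427). PSME1 (0.26) and PSME4 (0.24) were the 2 with a positive estimate. Without SCR DMSO replicate 2, PSMG3 (-0.96, adjusted p = 0.0249) and PSMD3 (-0.72, 0.0467) passed, where 6.60% of all genes did. PSMB8 and PSMB10 passed in siB cells and not in SCR cells, and the test of the difference between the 2 effects did not pass for either (-0.59, adjusted p = 0.381, and -0.32, 0.688).

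The members differed in the length of their genes, the property by which the study sorted transcripts. Of the 46 tested, 34 were short (a span under 30 kb), 8 medium and 4 long (over 100 kb; PSMA1, PSMD1, PSMD14 and PSME4), so that 73.9% were short, against 47.7% of 13201 tested genes with a span in SCR cells. With AAI the median change in SCR cells was 0.12 for short members (0.21 for all short genes), 0.19 for medium ones (0.26) and 0.40 for the 4 long ones (-0.09 for all 2554 long genes). In siB cells the medians were -0.08 for short members (0.05 for all short genes), -0.03 for medium ones (0.18) and 0.17 for long ones (-0.03). These are descriptions of few genes. All 4 long members were lowest in SCR DMSO replicate 2, and without it their median change in SCR cells was 0.03, with values from -0.27 to 0.42.

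Genes that act with the proteasome were taken as a list of 16 partners, in which AAI raised 2 and lowered 0 in SCR cells (8.98% and 3.36% of all genes) and raised 4 and lowered 1 in siB cells (30.4% and 21.8%). The medians were 0.36 and 0.20, against 0.18 and 0.10 for all genes. DDI2, the protease that releases NFE2L1, the factor that induces proteasome genes, had 55.6, 23.4 and 51.7 CPM in SCR DMSO and 96.9, 85.6 and 123 CPM in SCR AAI, without overlap. The difference was 1.28 ± 0.35 (SE; adjusted p = 0.0516), and it passed with the replicate block (0.00927) and without SCR DMSO replicate 2 (0.0151). In siB cells DDI2 rose from 55.8, 38.9 and 34.1 CPM to 122, 134 and 104 CPM, by 1.48 ± 0.18 (SE; adjusted p = 1.52e-04). NFE2L1 itself fell in siB cells, from 335, 366 and 334 CPM to 282, 261 and 279 CPM (-0.33, adjusted p = 0.0141), and differed by -0.41 in SCR cells, which did not pass (0.3). SHFM1, a small 19S subunit, was the other partner with a negative difference in SCR cells (-0.05, 0.901). PITHD1, which binds the 19S cap, rose in SCR cells by 1.11 ± 0.22 (SE; adjusted p = 0.0152) and in siB cells by 1.0 ± 0.11 (SE; adjusted p = 6.54e-05), with 56.6, 55.7 and 52.4 CPM in siB DMSO and 113, 103 and 118 CPM in siB AAI. ZFAND2A, a stress-induced zinc finger protein that binds the 19S cap, rose by 1.52 ± 0.26 (SE; adjusted p = 0.007) and 1.05 ± 0.19 (SE; adjusted p = 0.00136). UBE3C, a ligase on the proteasome, rose in siB cells by 0.37 ± 0.12 (SE; adjusted p = 0.0283), and ZFAND5 (-0.33, 0.0508) and ADRM1 (-0.12, 0.519), a ubiquitin receptor, did not pass. With median-ratio size factors PITHD1 missed the threshold in SCR cells (0.0719), DDI2 passed there (0.0378) and UBE3C missed it in siB cells (0.0785).

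Of 16 genes for ubiquitin, its activation and its delivery, 0 passed in SCR cells by limma, where 12.3% of all genes did (0 at an unadjusted p under 0.05, and 0 with the replicate block). In siB cells 0 rose and 5 fell, against 30.4% and 21.8% of all genes. The medians were 0.02 and -0.07. VCP, the unfoldase that extracts ubiquitylated proteins, had 456, 486 and 460.1 CPM in siB DMSO and 225, 239 and 270.3 CPM in siB AAI. All AAI libraries were lower, and it fell by 0.93 ± 0.10 (SE; adjusted p = 7.73e-05). SQSTM1 (-0.66, 0.00207), an autophagy receptor for ubiquitin, the activating enzyme UBA1 (-0.43, 0.00545) and the ubiquitin gene UBB (-0.31, 0.0213) also fell. The largest differences upward were those of UBA6 (0.32, 0.198), UBQLN1 (0.24, 0.13) and RPS27A (0.22, 0.0941), and did not pass. In SCR cells the differences of most size included VCP (-0.51, adjusted p = 0.194) and UBA1 (-0.42, adjusted p = 0.27) downward and UBA6 (0.44, adjusted p = 0.623), another activating enzyme, and the shuttles UBQLN1 (0.41, adjusted p = 0.394) and UBQLN2 (0.38, adjusted p = 0.34) upward.

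The 22 genes that ubiquitylate RPB1 or act beside that step at stalled polymerase had medians of 0.42 in SCR cells and 0.28 in siB cells, against 0.18 and 0.10 for all genes. In SCR cells 2 rose and 0 fell (8.98% and 3.36% of all genes), and with the replicate block 3 rose and 1 fell (14.7% and 6.40%). ARMC5, which recruits CUL3 to RPB1, rose by 0.99 ± 0.26 (SE; adjusted p = 0.0449) and TCEB3 (Elongin A, the factor that brings CUL5 to RPB1) by 0.79 ± 0.20 (SE; adjusted p = 0.0413), and both missed the threshold with median-ratio size factors (0.164 and 0.141). STK19, which acts in transcription-coupled repair, differed by 0.92 ± 0.26 (SE; adjusted p = 0.0598) and passed with the block (0.0342), and CUL5 differed by 0.89 ± 0.60 (SE; adjusted p = 0.387). RBX1 and HUWE1 differed by -0.25 (0.504) and -0.19 (0.651). In siB cells 10 rose and 1 fell, where 30.4% of all genes rose and 21.8% fell, and with median-ratio size factors 7 rose and 2 fell, against 26.7% and 27.2% of all genes. TCEB3 had 81.8, 80.0 and 75.3 CPM in siB DMSO and 219.6, 161 and 162 CPM in siB AAI, and rose by 1.17 ± 0.13 (SE; adjusted p = 1.11e-04). The ligase NEDD4, which places the first ubiquitin on RPB1, rose from 104, 56.7 and 63.1 CPM to 153, 171 and 162 CPM, by 1.16 ± 0.20 (SE; adjusted p = 0.00112). UBXN7, an adaptor of VCP, rose by 1.18 ± 0.21 (SE; adjusted p = 0.00145). The ligase WWP2 fell from 66.7, 67.8 and 77.5 CPM to 27.1, 35.4 and 38.7 CPM, by 1.06 ± 0.15 (SE; adjusted p = 3.59e-04), and in SCR cells differed by -0.88 ± 0.29 (SE; adjusted p = 0.0896), which passed with the replicate block (0.0233). Between siB AAI and SCR AAI, UVSSA, which recruits USP7 to stalled polymerase, was higher in siB cells by 0.71 ± 0.21 (SE; adjusted p = 0.049). This held in 5 of 14 alternatives (adjusted p of up to 0.191). UVSSA was the 1 gene of the 4 lists that passed in that comparison, where 9.28% of all genes did. With the replicate block 10 of their 66 genes passed there, against 28.9% of all genes, among them NEDD4 and TCEB3 (0.47 and 0.36 higher in siB cells). In DMSO no gene of these lists passed between siB and SCR cells by limma, nor did one in the interaction. At an unadjusted p under 0.05 there were 3 and 6 of the 66, against 4.73% and 13.3% of all genes.

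**Figure D5:**
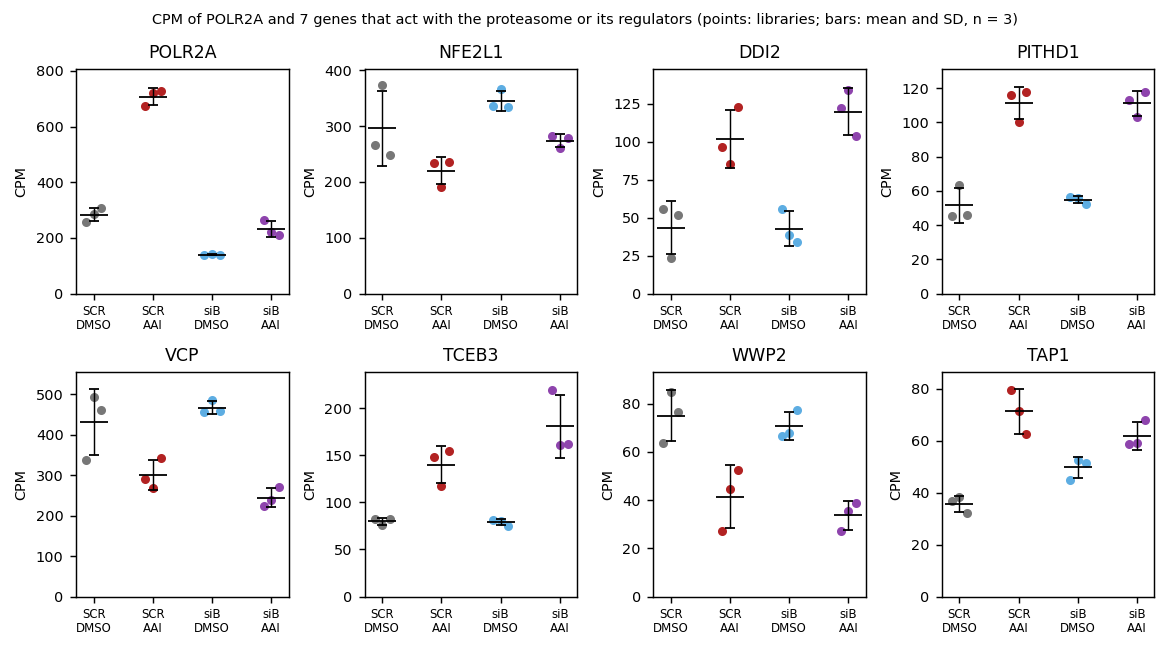
CPM (y axes, from 0) of POLR2A and 7 genes of the ubiquitin and proteasome pathway or class I antigen presentation in the 4 groups (x axes), with points for libraries and bars for the mean and SD (n = 3). DDI2, PITHD1 and TCEB3 are higher with AAI and WWP2 lower in both SCR and siB cells without overlap, and TAP1 lies between 62.4 and 79.6 CPM in SCR AAI and between 32.2 and 38.3 CPM in SCR DMSO.

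Of 12 genes of class I antigen presentation, the route that the immunoproteasome supplies, 1 rose in SCR cells with AAI (8.98% of all genes) and 1 rose and 2 fell in siB cells (30.4% and 21.8%), with medians of -0.04 and 0.10. TAP1, the peptide transporter whose gene lies beside PSMB9, had 36.6, 38.3 and 32.2 CPM in SCR DMSO and 79.6, 71.5 and 62.4 CPM in SCR AAI, and rose by 0.97 ± 0.21 (SE; adjusted p = 0.0222), though not with median-ratio size factors (0.0895). In siB cells it went from 44.9, 52.6 and 51.5 CPM to 58.7, 58.9 and 68.0 CPM, a difference of 0.31 ± 0.12 (SE; adjusted p = 0.0537). TAP2, its partner, differed by 0.46 in SCR cells (0.233). The ratio of PSMB9 to TAP1 was 0.531 ± 0.0245 in SCR DMSO (SD, n = 3) and 0.164 ± 0.0344 in SCR AAI, and 0.414 ± 0.0259 and 0.129 ± 0.0261 in siB cells, without overlap in either.

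NLRC5, the activator of class I genes, fell in siB cells (-0.65, 0.0202; -0.40, 0.525 in SCR cells), and B2M, the light chain of class I molecules, rose (0.28, 0.044), though not with median-ratio size factors (0.247). IRF1, another activator of the immunoproteasome genes, differed in SCR cells by 0.72 ± 0.22 (SE; adjusted p = 0.0775) and in siB cells by 0.20 (0.214), and in SCR cells passed with the replicate block (0.0476). The HLA-B and HLA-C genes differed by 0.25 and -0.12 in siB cells, TAPBP by -0.14, and none passed (adjusted p of at least 0.206). In SCR cells the peptidase ERAP2 differed by -0.23 (0.836).

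Immune cell markers were followed beside these genes, since the immunoproteasome is made in such cells. The 7 markers summed to between 141 and 204 CPM per library, nearly all of it CD68 and CD74, and CD3E was at 0 reads in all 12. PTPRC rose in siB cells from 0.556, 0.676 and 0.223 CPM to 2.52, 2.91 and 2.68 CPM and CD14 from 0.299, 0.676 and 0.223 CPM to 4.10, 1.38 and 2.14 CPM, in the group where the summed level of the immunoproteasome subunits was lowest. Of the 15 proximal tubule and epithelial markers 8 were tested in siB cells, where 2 rose and 5 fell (30.4% and 21.8% of all genes). The transport gene SLC5A2 was among those that rose, and it passed in 14 of 14 alternatives there. It also rose in SCR cells, in 12 of 14 alternatives, where 1 of 7 tested markers rose and 0 fell (8.98% and 3.36% of all genes). The sum of all 15 was 1461 ± 38.3 CPM in siB AAI against 2042 ± 28.8 CPM in siB DMSO (SD, n = 3). The part of these shifts in the results for the proteasome genes was not tested.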

How the data were processed

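RNA from 12 HK-2 libraries was sequenced as paired-end reads, which the authors aligned to hg38 and counted per gene with a UCSC annotation (BioJupies). Which aligner and which strand setting were used is not given in the sources used here. The deposited values are log10 of (CPM + 1) for 35238 genes. CPM was recovered from them, and reads as whole multiples of the value of 1 read (tolerance 0.02), which gave the depths.

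Each pair of groups was tested alone, as in the study, with limma 3.58.1 in R 4.3.3 (lmFit, then eBayes with trend, two-sided) on log2(CPM + 1), a scale that understates the change of low genes. Genes at a CPM of 1 or more in 3 or more libraries of a fit were kept, and p-values were adjusted by Benjamini-Hochberg over all of them. A gene passed at an adjusted p under 0.05. The interaction was fitted over 12 libraries. Simulated data with known changes, made for the siB groups with independent replicates and a fixed spread, were used to test that the fit ran correctly. They do not cover the wider spread of the SCR libraries. The alternatives were median-ratio size factors, voom on the recovered reads, the replicate number as a block, 0.1 as the pseudocount, a filter at a mean CPM of 5 or none, all 4 groups in 1 fit, each library left out, and CPM without AC010970.2, a transcript that varied strongly between libraries (the last chosen after seeing the data).

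Same-numbered libraries share only a number in the labels. Over 15325 genes their deviations from the group means correlated at 0.338 to 0.473 between SCR AAI and SCR DMSO and at 0.292 to 0.614 between siB AAI and SCR AAI, which was taken as pairing. Differently numbered libraries correlated at -0.593 to 0.159 and at -0.443 to 0.224 in the same comparisons. Deviations within a group cancel, so these values are not independent of those of the same-numbered libraries. The pairing was thus read from the values that were then tested, and the labels do not state it. Same-numbered libraries correlated at 0.0259 to 0.210 between siB AAI and siB DMSO and at -0.193 to 0.726 between siB DMSO and SCR DMSO, which was not taken as pairing.

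The members and gene lists were chosen with earlier results of these data known. Named genes were up to 10 members each way with the largest change among those that passed, or the 3 with the largest change where fewer than 3 passed, with the catalytic subunits, activators, PSMF1 and POLR2A in any case, and up to 3 genes each way from each list. For siB against SCR and the interaction, list genes that did not pass are not named, apart from 2 that passed with the block. Some genes of the lists are counted but not reported here by name. Gene spans and transcript lengths came from GENCODE 44 (hg38), promoters from RefSeq (GRCh38.p14). Figures were drawn with matplotlib 3.10.9 and tables made with pandas 2.3.3 in Python 3.11.15.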

Additional observations from a re-analysis of the deposited data

How the results depend on the processing

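For AAI in SCR cells the count of proteasome genes that rose and fell went from 0 and 0 to 2 and 1 with the replicate block and to 4 and 2 with all 4 groups in 1 fit, where 17.6% and 9.02% of all genes rose and fell. Leaving out each library gave 0 to 1 that rose (1 without SCR DMSO replicate 2) and 0 that fell, and the median change was -0.0075 with median-ratio size factors. For AAI in siB cells 4 rose and 9 fell. With median-ratio size factors 2 rose, with a median change of -0.16, and with all 4 groups in 1 fit 0 rose and 5 fell (20.5% and 14% of all genes). Leaving out each library gave 1 to 6 that rose and 4 to 9 that fell. The counts were 1 and 6 without siB AAI replicate 3, 2 and 5 without siB AAI replicate 2, 1 and 5 without siB DMSO replicate 2, and 2 and 4 without siB DMSO replicate 3. For siB against SCR with AAI 4 fell with the replicate block (13.8% of all genes). In DMSO the median was 0.036 to 0.20 with each library left out, and that of all genes -0.039 to 0.15. In the interaction 0 to 2 were negative past the threshold with each library left out (2 without SCR DMSO replicate 2). The cause of these changes was not tested, apart from fewer libraries where one was left out. The replicate block, where numbers did not pair the libraries, added PSMB2 (adjusted p = 0.0386) for AAI in siB cells and changed no other call of a proteasome gene there or in the siB against SCR comparison in DMSO. The counts of members called at 2-fold stayed within 1.5 times their value in every alternative. Depth limits PSMB11 and PSMA8, which stood at or near the limit that 0 reads allow.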

Other observations

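Summed over their members, the immunoproteasome subunits held 108 ± 11.1 CPM in SCR cells without AAI and 105 ± 29.2 CPM with it, and in siB cells 121 ± 7.34 CPM without and 81.2 ± 3.06 CPM with AAI (SD, n = 3). The assembly factors held 263 ± 6.43 CPM without and 325 ± 24.8 CPM with AAI in SCR cells. In siB cells they held 289.5 ± 3.75 CPM and 277 ± 16.2 CPM. The activators held 452 ± 19.6 CPM without and 411 ± 42.4 CPM with AAI in SCR cells, and 399 ± 8.87 CPM and 372 ± 20.7 CPM in siB cells. The reads of PSMB11 in siB AAI stood to those in SCR AAI, by depth, in a ratio of 2.22 (exact 95% interval 1.40 to 3.58, for counting error only). These values were not tested.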
